A study of Homo sapiens with 6 samples.

Results

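The miRNAs described here are 7 that mark the cell lineages of the normal pancreas, measured in Panc-1 cells. The acinar members were hsa-miR-216a-5p, hsa-miR-216b-5p, hsa-miR-217, hsa-miR-148a-3p and hsa-miR-148a-5p, and the islet members were hsa-miR-375 and hsa-miR-7-5p, written below without the species prefix. They were taken by name from the 2565 miRNA probes of the array, and each had 1 spot per array. Panc-1 is a widely used line of human pancreatic ductal adenocarcinoma. All values come from this 1 line, and no normal acinar or islet tissue was compared. Total RNA was profiled after 72 h without TGF-β (control, 3 arrays) or with 10 ng/mL of TGF-β (treated cells, 3 arrays), a cytokine that drives epithelial-mesenchymal transition. The comparison asks which lineage miRNAs Panc-1 cells carried and whether TGF-β changed them. The labels do not say whether the arrays of a group came from separate cultures, so the p-values measure only the spread between these arrays, which may be technical.

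A miRNA is cut from a hairpin precursor, and either arm of the hairpin can be kept as the mature strand. The mature strand guides the silencing complex to messages that pair with its seed, the bases near its 5′ end. Acinar cells, which make digestive enzymes, are known for miR-216a, miR-216b, miR-217 and miR-148a, which are commonly described as reduced in ductal adenocarcinoma. Islet cells, which make hormones, are known for miR-375 and miR-7, which act in endocrine differentiation and in the control of insulin secretion.

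The mature sequences below are shown because the members differ in how much sequence they share with other miRNAs on the array. They are from RefSeq (GRCh38.p14), are written 5′ to 3′, and have the seed (bases 2 to 8) in capitals. Of the 7 members, 6 matched an entry in that table. The array names miR-217 and miR-375 without an arm, and the sequences given are those that RefSeq calls miR-217-5p and miR-375-3p.
miR-216a-5p: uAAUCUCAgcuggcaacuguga
miR-216b-5p: aAAUCUCUgcaggcaaauguga
miR-217: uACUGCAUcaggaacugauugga
miR-148a-3p: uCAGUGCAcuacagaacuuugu
miR-148b-3p: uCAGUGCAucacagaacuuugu
miR-152-3p: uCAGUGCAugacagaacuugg
miR-375: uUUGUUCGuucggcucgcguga
miR-7-5p: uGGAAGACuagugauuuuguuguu

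The mature strands of the acinar cluster lie on the minus strand of chromosome 2, miR-217 at chr2:55983020-55983042, miR-216a-5p at chr2:55989020-55989041 and miR-216b-5p at chr2:56000764-56000785. Their hairpins are separated by 5873 and 11654 bases, and all 3 lie within the intervals of the lncRNA genes MIR217HG and LOC105374690. Over their 22 bases, miR-216a-5p and miR-216b-5p were the same at 18 and differed at 4. Counted from 1 at the 5′ end, with the base of miR-216a-5p first, the differences were U1A, A8U, U11A and C17A, so that bases 2 to 7 were shared and the full seed was not. miR-148a-3p is at chr7:25949922-25949943 on the minus strand, within the interval of the lncRNA gene LOC105375199. Its seed was shared by miR-148b-3p and miR-152-3p and by no other of the 2370 mature miRNA names in the table. The seed of miR-217 was shared by miR-6807-3p, and those of the other members shown by no other name. Counted in the same way with the base of miR-148a-3p first, miR-148b-3p differed from it at C9U and U10C, and miR-152-3p differed from it at C9U, U10G and U20G. miR-375 is at chr2:219001648-219001669 on the minus strand, outside every other gene interval listed. The sequence of miR-7-5p was listed for MIR7-1, at chr9:83969811-83969834 on the minus strand within the HNRNPK interval, and for MIR7-3, at chr19:4770700-4770723 on the plus strand within the MIR7-3HG interval. No miR-7-5p entry was listed for MIR7-2, on chromosome 15 within the AEN interval, whose 3p arm is given below. The missing entry does not mean that MIR7-2 gives no miR-7-5p. Since more than 1 gene gives the same mature miR-7-5p, the array cannot tell which of them it came from.

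Presence was read against spots that carry no miRNA probe. Each array held 320 blank spots. After 5% were dropped at each end, 288 remained, with a mean per array of 18.2 to 21.3 intensity units and an SD of 0.528 to 0.768. Over all 320 the SDs were larger, 0.699 to 0.965, so heights in SDs of the trimmed spots, used throughout, are larger than they would be over all blank spots. A spot counted as detected where its median intensity was above the blank mean by more than 2 SD, a limit of 19.5 to 22.8 units per array. By this rule 1531 to 1787 miRNAs were detected per array. TGF-β replicate 2 had the most. The limit was a low one, because 18 to 25 of the blank spots and 16 to 24 of the 32 negative control spots of an array also passed it. Heights below are therefore given as the number of blank SDs above the blank mean, beside how many negative control spots of the same array were as high or higher. The 3 control arrays shared 1 slide and the 3 treated arrays another, so an effect of the slide cannot be told apart from that of TGF-β.

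In Panc-1 cells, 2 of the 7 lineage miRNAs were detected on all 6 arrays, 1 of 5 from the acinar list (miR-148a-3p) and 1 of 2 from the islet list (miR-7-5p). For comparison, 1282 of all 2565 miRNA probes (50%) were detected on all 6 arrays and 522 (20.4%) were detected on none. miR-216b-5p, miR-217 and miR-148a-5p were detected on no array. miR-216a-5p was detected on 2 arrays and miR-375 on 1, all of them TGF-β arrays. A miRNA entered the test of TGF-β if all 3 arrays of a group, or of both, detected it, which held for 2 of 7 members and 56.8% of all probes.

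**Figure D1:**
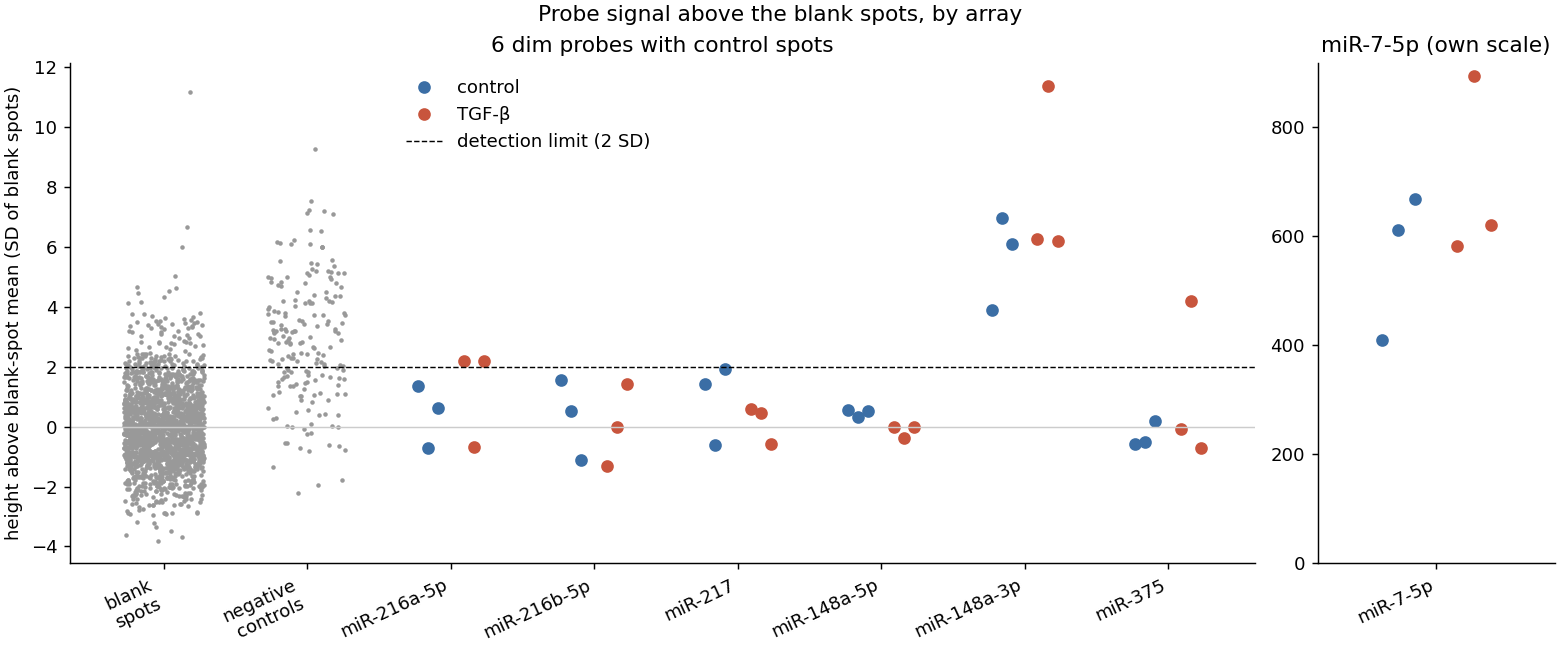
Height of each lineage miRNA above the mean of the blank spots, in SDs of the blank spots, for the 3 control and 3 TGF-β arrays, with the blank and negative control spots of all arrays in gray, the detection limit dashed and miR-7-5p on its own scale. miR-7-5p lies at 409 to 894 SDs, miR-148a-3p at 3.90 to 11.4 SDs, and the other 5 members lie near the blank spots on nearly all arrays.

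The 3 miRNAs of the chromosome 2 cluster were at the level of the blank spots. miR-217, a miRNA best known from acinar cells, gave 19.2, 18.7 and 22.8 intensity units on control arrays and 19.8, 19.0 and 20.5 on treated arrays. These were 1.44, -0.604 and 1.92 blank SDs above the mean in control cells and 0.576, 0.463 and -0.594 in treated cells, so no array reached the limit and the groups overlapped. On every array at least 18 of the 32 negative control spots were as high as miR-217 or higher. miR-216b-5p was at 1.55, 0.533 and -1.11 SDs in control cells and at -1.33, -0.016 and 1.43 in treated cells, with 24 to 32 of the negative control spots as high or higher. It was likewise below the limit on all arrays, with values on both sides of the blank mean in each group.

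miR-216a-5p was the only member of the cluster with any deposited value. Its signals were 19.1, 18.7 and 21.8 units in control cells and 20.9, 18.4 and 22.4 in treated cells, which were 1.36, -0.707 and 0.612 SDs and 2.19, -0.673 and 2.21 SDs above the blank mean. TGF-β replicates 1 and 3 were thus just past the limit and TGF-β replicate 2 was below the blank mean. On replicates 1 and 3 the deposited value was 6, where the limit itself corresponds to 5.46 and 5.32 on that scale, and 19 and 21 of the 32 negative control spots were as high or higher. Since a probe below the limit in 1 group has only a bound there, the fold was computed against the lowest signal that counted as detected, and it was under 1, so none is given. Without TGF-β replicate 2, miR-216a-5p was detected on every remaining TGF-β array, but it then passed only through the group where it was high, so no test of it is given.

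The precursor of miR-148a gave a low signal on its 3p arm and none above the limit on its 5p arm. miR-148a-5p was at 0.555, 0.336 and 0.523 SDs in control cells and at -0.0244, -0.376 and 0.00466 SDs in treated cells. In these heights the control arrays all lay slightly above the TGF-β arrays, but all 6 values were below the limit. The signals overlapped, at 18.6, 19.3 and 21.7 units in control cells and 19.4, 18.6 and 20.9 in treated cells. No fold is given for 2 groups at the level of the blank spots. miR-148a-3p, whose known targets include the DNA methyltransferase DNMT1, gave 20.8, 23.5 and 26.0 units in control cells and 23.5, 24.8 and 25.1 in treated cells. It was 3.90, 6.97 and 6.09 SDs above the blank mean in control cells and 6.25, 11.4 and 6.21 in treated cells, past the limit on every array. Control replicate 1 was the lowest and TGF-β replicate 2 the highest. At most 3 of the 320 blank spots of an array were as high. Of the 32 negative control spots, 13, 0 and 2 were as high or higher on control arrays and 2, 0 and 1 on treated arrays. miR-148a-3p thus exceeded every negative control spot on 2 arrays, control replicate 2 and TGF-β replicate 2.

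Of the islet miRNAs, miR-375, which limits insulin release, was at the blank level on 5 arrays. Its signals were 17.9, 18.8 and 21.5 units in control cells and 19.4, 21.0 and 20.4 in treated cells. Relative to the blank mean it was at -0.578, -0.501 and 0.195 SDs in control cells and at -0.0758, 4.21 and -0.713 in treated cells. Only TGF-β replicate 2 was past the limit, with a deposited value of 11, and its neighbours in the group were below the blank mean. On that array 1 of the 320 blank spots and 8 of the 32 negative control spots were as high or higher. The bound on the fold was again under 1, and none is given.

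miR-7-5p, an islet miRNA that is also known as a repressor of EGFR signaling, was far above the blank spots in every sample. Its signals were 285, 399 and 534 units in control cells and 401, 491 and 443 in treated cells, or 409, 611 and 668 blank SDs and 582, 894 and 621 blank SDs above the mean. No blank or negative control spot of any array reached it. Its deposited values were 1101, 1639 and 1728 in control cells and 1588, 2256 and 1653 in treated cells, on a scale where the median detected miRNA of each array was set to 25. Control replicate 1 was the lowest and TGF-β replicate 2 the highest, and the groups overlapped. In bulk RNA, fewer cells that carry a miRNA and less of it per cell cannot be told apart.

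The scanner's local background, read around each spot, gave a different picture for the brightest member. Around miR-7-5p it was 337, 367 and 344 units on control arrays and 351, 601 and 117 on treated arrays, above the signal of the spot itself on control replicate 1 and TGF-β replicate 2. Around miR-148a-3p it was 13.2 to 23.3 units, above the signal on control replicate 1, and around miR-217, which was not detected, it was 11.8 to 17.4 units. The local background was thus high around the bright member and low around the dim ones. Over all spots with a signal above 200 units, of which an array held 170 to 193, the median local background per array was 0.434 to 0.995 of the signal. When detection was set at the local background plus 2 blank SDs in place of the blank mean, 5 members passed, the 5 acinar miRNAs, and miR-7-5p and miR-375 did not. By that rule 46.9% to 100% of the blank spots also passed. The blank spots were therefore used as the background for the values given here.

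**Figure D2:**
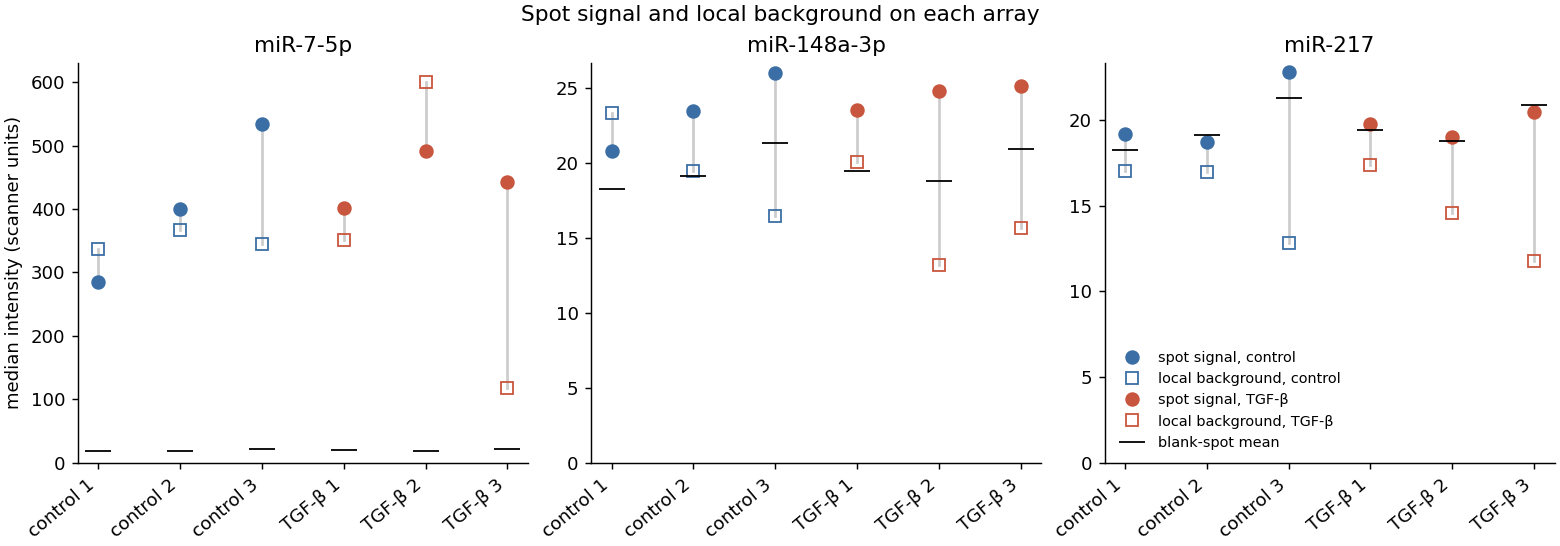
Spot signal (filled circles) and local background (open squares), in intensity units, of miR-7-5p, miR-148a-3p and miR-217 on each of the 6 arrays, with the blank-spot mean as a bar. Around miR-7-5p the local background is 117 to 601 units and above the spot's own signal on 2 arrays, while around miR-217 it is 11.8 to 17.4 units.

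The other arms of the same precursors followed the members in part. Of 6 such arms, 4 were on the array, and of these miR-7-1-3p was detected on all 6 arrays. miR-7-1-3p comes from MIR7-1 alone, and its signals of 36.2, 42.7 and 51.9 units in control cells and 42.0, 41.8 and 42.3 in treated cells were 27.5 to 43.5 blank SDs above the mean. Control cells had a mean deposited value of 93 ± 16.5 (SD, n = 3), compared with 96 ± 13.1 (SD, n = 3) for treated cells, a ratio of 1.03. The direction turned with the scale, since the log2 fold change after quantile normalization was -0.062 (SE 0.14, adjusted p = 0.912 by limma). miR-7-5p and the opposite arm of MIR7-1 were thus both detected in Panc-1 cells with and without TGF-β. miR-7-2-3p, the corresponding arm of MIR7-2, was at 1.54, 3.17 and 2.49 SDs in control cells and at 1.83, 0.855 and -0.827 in treated cells. On control arrays 24, 14 and 15 of the 32 negative control spots were as high or higher, and on TGF-β arrays 24, 26 and 31. It had a deposited value on 2 control arrays and on no TGF-β array, but control replicate 1 was below TGF-β replicate 1, and the groups overlapped. The difference was not tested, since miR-7-2-3p was not detected on every array of either group.

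In the acinar cluster, miR-216a-3p had values on 5 arrays, at 0.85, 2.33 and 4.78 SDs in control cells and 2.18, 4.40 and 2.42 in treated cells, with 3 to 26 of the 32 negative control spots as high or higher. It passed the filter only through the TGF-β group, since control replicate 1 was below the limit, and no test of it is given. miR-216b-3p was below the limit on all arrays, at -1.13 to 0.849 SDs. No arm of the cluster that was on the array exceeded every negative control spot on any array.

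The seed relatives of miR-148a-3p were higher above the blank spots than miR-148a-3p itself on every array, each measured by its own probe. miR-148b-3p was at 31.0, 28.1 and 25.7 SDs in control cells and 28.8, 39.5 and 22.4 in treated cells. miR-152-3p was at 30.1, 35.4 and 36.5 SDs in control cells and 33.8, 48.6 and 38.7 in treated cells. Heights of different probes depend on the probes as well as on the RNA, so they do not rank the 3 miRNAs by amount. How far the probes separate sequences that differ at 2 or 3 bases is not given in the sources used here, and a part of their signal in the miR-148a-3p value was not tested. After quantile normalization the log2 fold change was -0.035 for miR-148b-3p (SE 0.16, adjusted p = 0.979 by limma), whose deposited means had a ratio of 1.06, and 0.13 for miR-152-3p (SE 0.11, adjusted p = 0.698 by limma). In the quantile-normalized log2 values, miR-152-3p was 4.37, 4.56 and 4.56 in control cells and 4.59, 4.62 and 4.66 in treated cells, so the groups did not overlap, as for 18.9% of all miRNAs tested (2-sided p = 0.1 by exact permutation, which is as low as 3 arrays against 3 can go). In its deposited values of 81, 95 and 94 in control cells and 92, 123 and 103 in treated cells the groups overlapped (2-sided p = 0.3 by exact permutation). Of the 5p arms, miR-148b-5p was detected on all arrays with a normalized log2 fold change of -0.015 (SE 0.14, adjusted p = 0.987 by limma) and a ratio of deposited means of 1.08, and miR-152-5p had a value on TGF-β replicate 2 only.

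Among 4 other miRNAs known from islets and endocrine cells, miR-9-5p was detected on all 6 arrays and miR-184, miR-204-5p and miR-124-3p on some. The deposited values of miR-9-5p, which is best known from neural tissue, were 995, 1155 and 1223 in control cells and 1089, 1440 and 1089 in treated cells. The groups overlapped, and the ratio of the deposited means was 1.07. The direction turned after quantile normalization, where the log2 fold change was -0.12 (SE 0.076, adjusted p = 0.563 by limma). The 8 miRNAs commonly described as raised in pancreatic cancer, including miR-21-5p, miR-155-5p and miR-196a-5p, were all detected on all 6 arrays, compared with 50% of all probes. Of these 8, 0 were called between the groups at an adjusted p under 0.05 in limma, compared with 3.98% of all miRNAs tested. For 3 of them the groups did not overlap after quantile normalization, compared with 18.9% of all miRNAs tested. Their log2 fold changes differed in direction, -0.16 for miR-196a-5p, -0.25 for miR-196b-5p and 0.32 for miR-31-5p. In the deposited values the groups overlapped for miR-196a-5p and miR-196b-5p and did not for miR-31-5p. Of 6 miRNAs known from blood cells and serum, miR-142-3p, miR-150-5p and miR-486-5p were detected on all 6 arrays and the others on some. miR-150-5p (12.3 to 19.5 SDs) and miR-486-5p (22.1 to 34.6 SDs) exceeded every negative control spot on every array. miR-142-3p was at 2.15 to 10.1 SDs, with 0 to 20 of the 32 as high or higher. Of the 5 that were tested, the groups did not overlap for miR-486-5p only (log2 fold change -0.41, adjusted p = 0.217 by limma). The liver miRNA miR-122-5p was detected on 3 arrays. Since lists from other tissues also gave values past the 2 SD limit, detection does not check the label of the line.

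**Figure D3:**
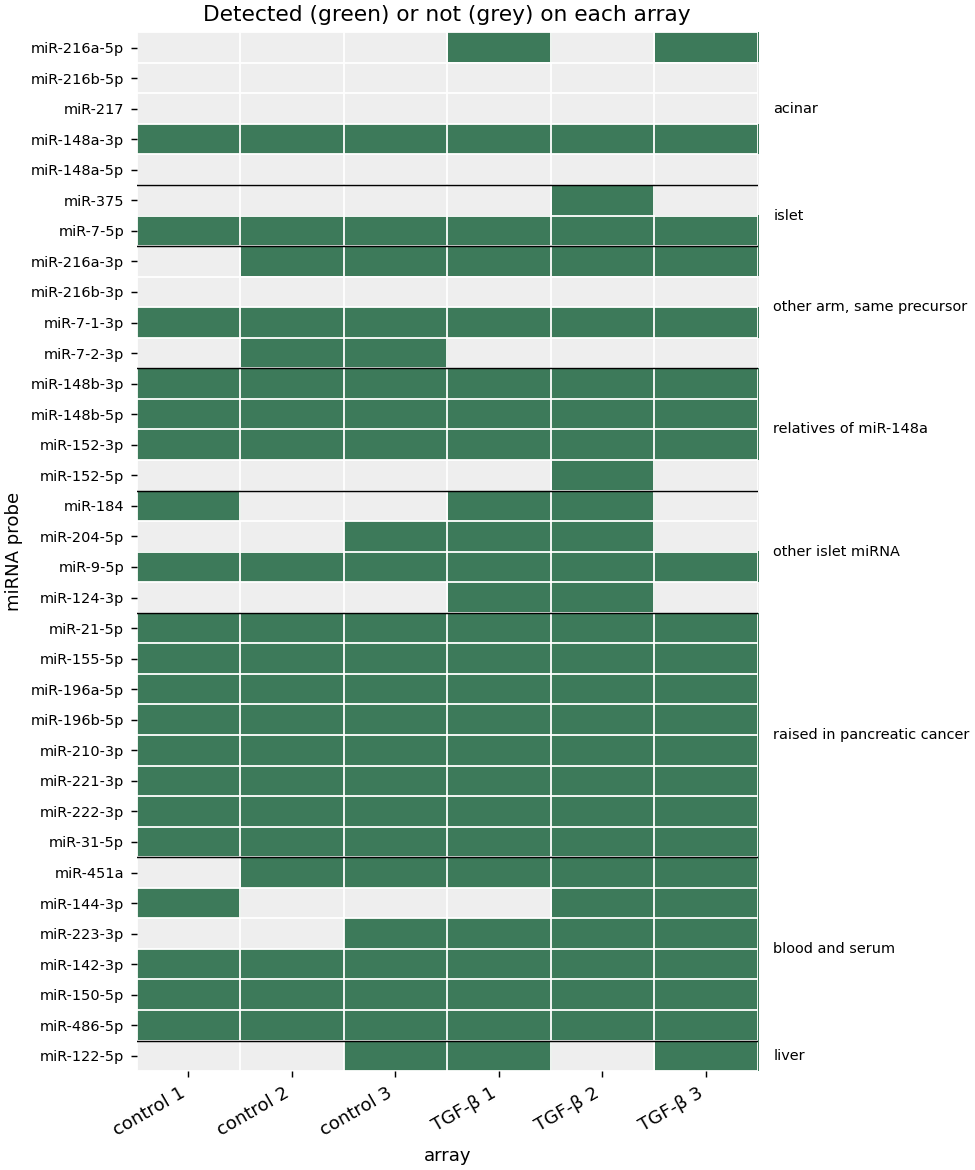
Detection of each miRNA (rows, by list) on each of the 6 arrays (columns), in green where its signal was above the limit of 2 SD and in gray where it was not. Of the 5 acinar members 1 was detected on all arrays and 3 on none, whereas all 8 miRNAs described as raised in pancreatic cancer were detected on all arrays.

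Neither of the members that could be tested was called between TGF-β-treated and control cells. The test compared log2 values after subtraction of the blank mean and quantile normalization, with limma and Benjamini-Hochberg adjustment over the 1457 miRNAs that entered it. Of these, 58 (3.98%) were called at an adjusted p under 0.05, 38 higher (2.61%) and 20 lower (1.37%) in treated cells. The members called were 0 of 2 by limma, 0 of 2 by the methods' t-test, which called 17 of all 1457 (1.17%), and 0 of 2 by limma on the deposited values, where 31 of 1446 miRNAs (2.14%) were called. In limma 0 of the 2 had an unadjusted p under 0.05, compared with 202 of 1457 (13.9%). With only 2 members tested, a count of 0 cannot be told apart from these shares.

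For miR-148a-3p, the normalized log2 values were 1.50, 2.21 and 1.99 in control cells and 2.16, 2.52 and 2.05 in treated cells. The TGF-β mean was the higher, but the groups overlapped, since control replicate 2 lay above TGF-β replicates 1 and 3. The means were 1.90 ± 0.37 (SD, n = 3) and 2.24 ± 0.25 (SD, n = 3), a log2 fold change of 0.34 (SE 0.23, adjusted p = 0.580 by limma). As a fold this was 1.27, with a 95% interval from 0.885 to 1.81. The exact permutation test gave p = 0.4 (2-sided). In the deposited values, control cells had 15 ± 4.58 (SD, n = 3) and treated cells 21 ± 6.93 (SD, n = 3), a ratio of 1.40 that was within the spread of the arrays (exact permutation test, 2-sided p = 0.4). Without control replicate 1, the lowest array, the log2 fold change was 0.14.

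miR-7-5p gave a narrower interval. Its normalized log2 values were 8.26, 8.68 and 8.77 in control cells and 8.69, 8.72 and 8.72 in treated cells. On this scale the TGF-β arrays lay close together, inside the range of the control arrays. Control replicate 1 was apart from the other control arrays. The means were 8.57 ± 0.27 (SD, n = 3) and 8.71 ± 0.014 (SD, n = 3), and the log2 fold change was 0.14 (SE 0.11, adjusted p = 0.669 by limma). The fold was 1.10, with a 95% interval from 0.926 to 1.31, and the exact permutation test gave p = 0.7 (2-sided). Without control replicate 1 the log2 fold change was -0.017, so its direction rested on that array. Control replicate 1 also gave the lowest normalized value of miR-148a-3p, miR-7-1-3p and miR-152-3p, but the highest of miR-148b-3p (4.41), and it was not the lowest for miR-148b-5p. In the deposited values the means were 1489 ± 339 (SD, n = 3) and 1832 ± 368 (SD, n = 3), a ratio of 1.23 (exact permutation test, 2-sided p = 0.5). There the TGF-β arrays, at 1588, 2256 and 1653, did not lie close together. The deposited scale shifted all miRNAs tested by a median log2 fold change of 0.11 toward TGF-β, compared with -0.013 after quantile normalization.

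**Figure D4:**
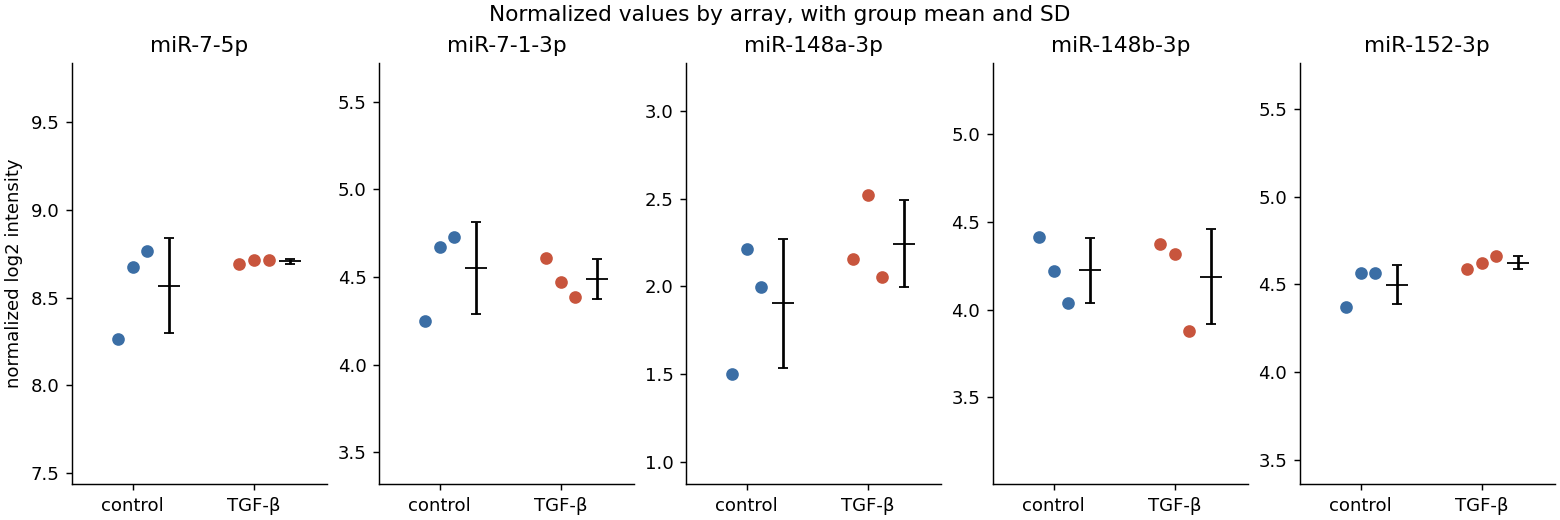
Normalized log2 intensity of miR-7-5p, miR-7-1-3p, miR-148a-3p, miR-148b-3p and miR-152-3p on each array, with the mean and SD of each group of 3 beside the points. For miR-148a-3p and miR-7-5p the control and TGF-β arrays overlap, and control replicate 1 is the lowest of the 6 arrays for both.

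**Figure D5:**
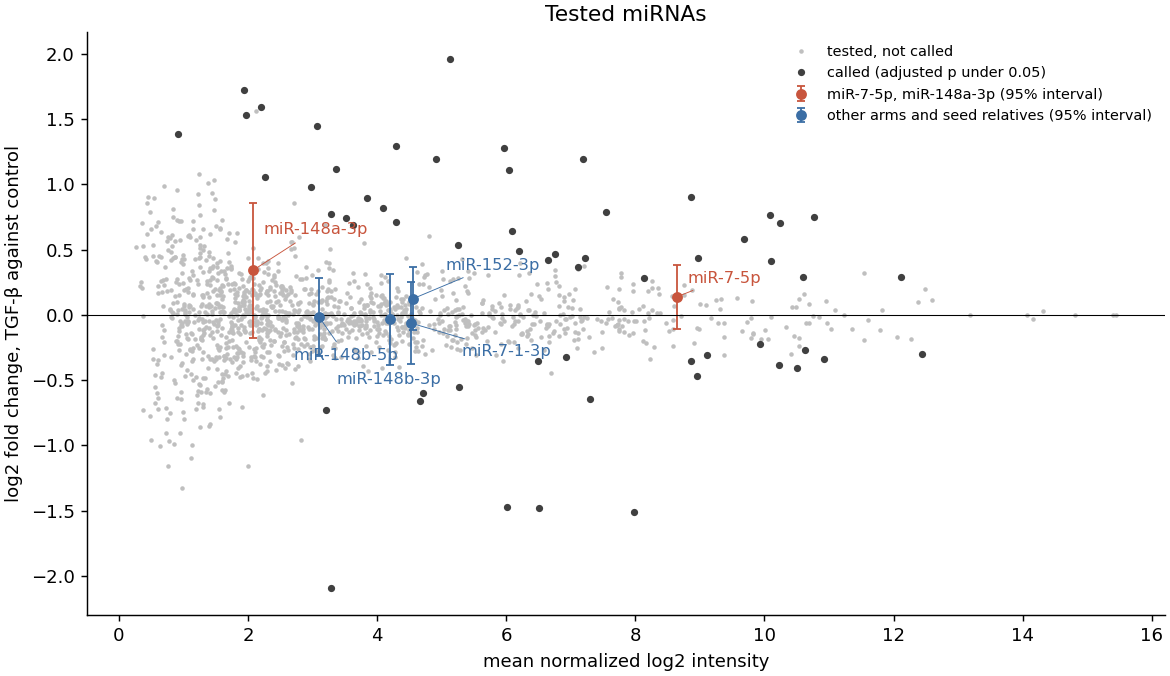
Log2 fold change of TGF-β against control for the 1457 miRNAs tested, against their mean normalized log2 intensity, with 95% intervals for miR-148a-3p, miR-7-5p, miR-7-1-3p and the seed relatives of miR-148a. miR-148a-3p (0.34) is near the dim end, miR-7-5p (0.14) near the bright end, and neither is among the 58 called.

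The miRNAs whose pattern over the 6 arrays was most like that of miR-148a-3p were miR-147b, miR-20a-3p and miR-101-3p. Likeness was the root mean square difference of log2 values after centering each miRNA on its own mean, among 1281 others detected on all arrays, and was 0.0857, 0.105 and 0.122 on the log2 scale. A small difference over all 6 arrays fixes the fold change near that of miR-148a-3p, so their log2 fold changes of 0.35, 0.28 and 0.34 follow from the choice. None was called by limma.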

How the data were processed

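Total RNA from Panc-1 cells was labeled with Cy5 and hybridized to 6 Toray 3D-Gene miRNA arrays. For each of 3200 spots per array, the deposited scanner output gave a median intensity and a median intensity of the surrounding background, linear and not normalized, and a further table from the authors gave processed intensity values by a method not given in the sources used here. Subtracting the trimmed mean of the blank spots (5% dropped at each end), scaling each array so that its detected miRNAs had a median of 25, and leaving spots not above that mean plus 2 SD of the same trimmed spots empty gave that table exactly after rounding.

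Here, the same trimmed blank mean was subtracted, values under 1 were set to 1, log2 values were quantile normalized over 2565 miRNA probes, and 3 flagged spots were set as missing. Groups were compared in R 4.3.3 with limma 3.58.1 (eBayes with an intensity trend), after a check on simulated data, and single miRNAs with an exact 2-sided permutation test. Figures were drawn with matplotlib 3.10.9. The members, the lists of miRNAs, the blank-spot background and the tests were chosen with earlier results of these data known. By rule, the text names all members, the arms of their precursors, the seed relatives, any list member that was called and the 3 miRNAs most like the member with the largest change. Other list miRNAs, such as miR-9-5p, were named after their values were seen. Alternatives concerned the background, the normalization, the detection limit, the floor, the model, the replicate number as a block and each array left out in turn. The number of arrays limits the precision.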

Additional observations from a re-analysis of the deposited data

How the results depend on the processing

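Of the members that entered the test, 0 were called under any of the 21 alternatives. These were miR-148a-3p and miR-7-5p throughout, with 4 members tested when detection on 1 array sufficed, 7 without a detection filter and 3 without TGF-β replicate 2, where the added members were near the blank spots and their outcome says nothing about TGF-β. The number of members detected, 2, was 4 when 1 array sufficed (with miR-216a-5p and miR-375), 5 with the local background plus 2 SD and 1 (miR-7-5p) above every negative control spot, a rule added once the data had been seen and passed by 33.2% of all probes. With each array left out it was 2 to 3. The log2 fold change of miR-148a-3p stayed above 0, from 0.14 (without control replicate 1) to 0.50 with arrays left out and from 0.037 (local background) to 0.49 (deposited values) otherwise, with adjusted p from 0.484 to 0.990 in limma and the methods' t-test. That of miR-7-5p was -0.017 without control replicate 1, up to 0.23 with other arrays left out, and 0.13 to 0.31 otherwise, with adjusted p from 0.373 to 0.990. Over all miRNAs tested, the 58 calls (38 higher, 20 lower) became 0 with the local background (34 at an unadjusted p under 0.05 in limma), 35 without normalization (27 higher, 8 lower), 31 with the deposited values (27 higher, 4 lower), 30 with a floor of 5, 19 without a detection filter, 32 without the trend and 17 with the methods' t-test. Leaving out arrays gave 25 (without TGF-β replicate 2) to 51. With the replicate number as a block there were 60 calls, and the adjusted p was 0.506 for miR-148a-3p and 0.563 for miR-7-5p. The deviations of same-numbered arrays correlated at 0.129, 0.111 and -0.0274 over 1282 miRNAs, not all above 0.1, so the numbers were not taken as pairs. The cause of these shifts was not tested. For 5 of the 7 members, signal over background allows no statement on TGF-β.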
